A study of Mus musculus with 2 samples.

Results

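Mitosis and kinetochore genes encode the machinery that carries a cell from G2 through chromosome segregation to cytokinesis, and a fixed set of 45 of them was followed in mouse ureters cultured with an inhibitor of WNT secretion. A gene belonged to the set when its symbol was the gene name of a non-control probe on the array, and all 45 were found among the 29924 gene names of the array. The rule for membership uses no measured value, but the set was drawn up with earlier results of these data known. For a gene with several probes the brightest was taken, a choice made from the measured signal. They comprised 6 cyclins, CDK1 and its activators, 8 mitotic kinases, 5 genes of the spindle checkpoint, the anaphase-promoting complex and the securin-separase pair, 3 subunits of the chromosomal passenger complex, 6 centromere and kinetochore genes, 9 spindle motors and spindle proteins, 2 cytokinesis genes and 6 genes for condensin subunits, topoisomerase II and the chromosome surface.

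The study asked how SHH and WNT signals direct the growth and differentiation of the lamina propria, the fibroblast layer beneath the urothelium of the ureter. Ureters were taken from newborn (P0) wildtype pups of the NMRI strain and kept for 18 h either in 5 µM IWP-2, which inhibits the acyltransferase PORCN and thereby the secretion of WNT proteins, or in its solvent DMSO at 1:1000. All ureters were whole explants without a transgene. Total RNA of 1 pool of 5 to 6 ureters per condition was labelled and a control pool was hybridized together with an IWP-2 pool, so that 2 two-colour Agilent arrays held 4 pools. The pools of replicate 1 were female, with IWP-2 in the red and control in the green channel. The pools of replicate 2 were male, with the dyes exchanged. Sex and dye orientation therefore cannot be told apart.

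Expression of most mitosis genes is periodic and peaks in G2 and M phase. In resting cells the DREAM complex, whose MuvB core contacts promoters through LIN54, keeps them silent, and in dividing cells the MuvB core joins B-MYB and FOXM1 and activates them. The MuvB core binds the cell cycle genes homology region (CHR), and the neighbouring CCAAT boxes are bound by NF-Y. In whole tissue the RNA level of such genes depends on how many cells are in cycle, and in a bulk sample fewer cells of a type and less RNA per cell cannot be told apart.

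To show what this arrangement looks like, promoters are printed for the 4 tested members with the lowest mean log2 fold change among those with a CHR motif in the 150 bases before the annotated RefSeq transcription start (assembly GRCm38.p6). The motif was thus a condition for printing, and the motif of *Kif4*, which stood lower than *Ect2* and *Top2a*, lies outside that stretch. The sequences are given 5′ to 3′, in lower case with the CHR motif (TTTGAA or TTTAAA) and the CCAAT box in capitals. Both motifs were searched on both strands, so that a motif on the other strand reads TTCAAA or ATTGG.
Mki67 (chr7:135716380-135716529, reverse strand): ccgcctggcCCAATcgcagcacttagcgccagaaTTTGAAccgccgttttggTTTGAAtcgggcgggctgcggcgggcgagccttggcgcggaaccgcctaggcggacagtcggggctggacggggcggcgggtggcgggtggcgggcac
Espl1 (chr15:102296143-102296292, forward strand): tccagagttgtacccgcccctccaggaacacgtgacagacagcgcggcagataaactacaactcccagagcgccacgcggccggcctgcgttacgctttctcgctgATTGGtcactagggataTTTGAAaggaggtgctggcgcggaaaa
Ect2 (chr3:27153879-27154028, reverse strand): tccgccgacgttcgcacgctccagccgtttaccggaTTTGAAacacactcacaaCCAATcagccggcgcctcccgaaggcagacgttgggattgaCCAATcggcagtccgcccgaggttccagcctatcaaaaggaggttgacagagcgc
Top2a (chr11:99024190-99024339, reverse strand): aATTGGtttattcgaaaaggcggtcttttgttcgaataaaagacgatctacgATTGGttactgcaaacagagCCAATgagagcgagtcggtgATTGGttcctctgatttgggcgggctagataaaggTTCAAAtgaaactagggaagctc
*Mki67* carried 2 CHR motifs in this stretch, and the other 3 genes carried 1 each. *Top2a*, whose product untangles sister chromatids, had 4 CCAAT boxes, *Ect2* had 2, and *Mki67* and *Espl1* had 1 each. In the 300-base windows of the RefSeq promoter table, which reach from 250 bases before to 50 bases after the start, a CHR motif occurred in 30 of the 37 members listed there (81.1%), against 30.6% of all 27025 genes in that table. A CCAAT box occurred in 28 of them (75.7%, against 41.1%), and both motifs in 26 (70.3%, against 3306 of the 27025 genes). No window was given for *Aurkb*, *Ccna2*, *Tpx2*, *Foxm1*, *Incenp*, *Kif20a*, *Smc4* and *Cdc25c*. A motif match describes the letters of the window and is not evidence of binding. The 28 tested members with a CHR motif had a median log2 fold change of −0.28 and the 7 without one of −0.32.

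Most mitosis genes had slightly lower signals in IWP-2-treated ureters, though none passed the adjusted test. Values are log2 fold changes of IWP-2 over control from background-corrected, dye-normalised intensities, and a gene was tested when its mean signal exceeded 100 in at least 1 condition. Of the 45 members, 42 were tested and 41 of these were below 0 in both arrays, against 29.1% of the 14336 genes tested. The median member was at 82.6% of its control level, a log2 fold change of −0.28, whereas the median over all genes tested was −0.01. Taken singly, replicate 1 gave a median over the members of −0.27 and replicate 2 one of −0.29. With limma's moderated test of the 2 ratios against 0 and Benjamini-Hochberg adjustment over all genes tested, 0 of the 42 members were called lower, against 0.886% of all genes (127 genes, beside 52 called higher, or 108 lower and 85 higher with the arrays centred on their medians). At an unadjusted limma p below 0.05, 39 members were lower, against 6.64% of all genes. The lowest adjusted p of any member was 0.0621, and 11 members had an adjusted p below 0.1. No member passed the study's own type of filter, a control signal above 100 and a 1.5-fold lower level in both arrays, which 0.363% of all genes with such a signal passed.

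**Figure D1:**
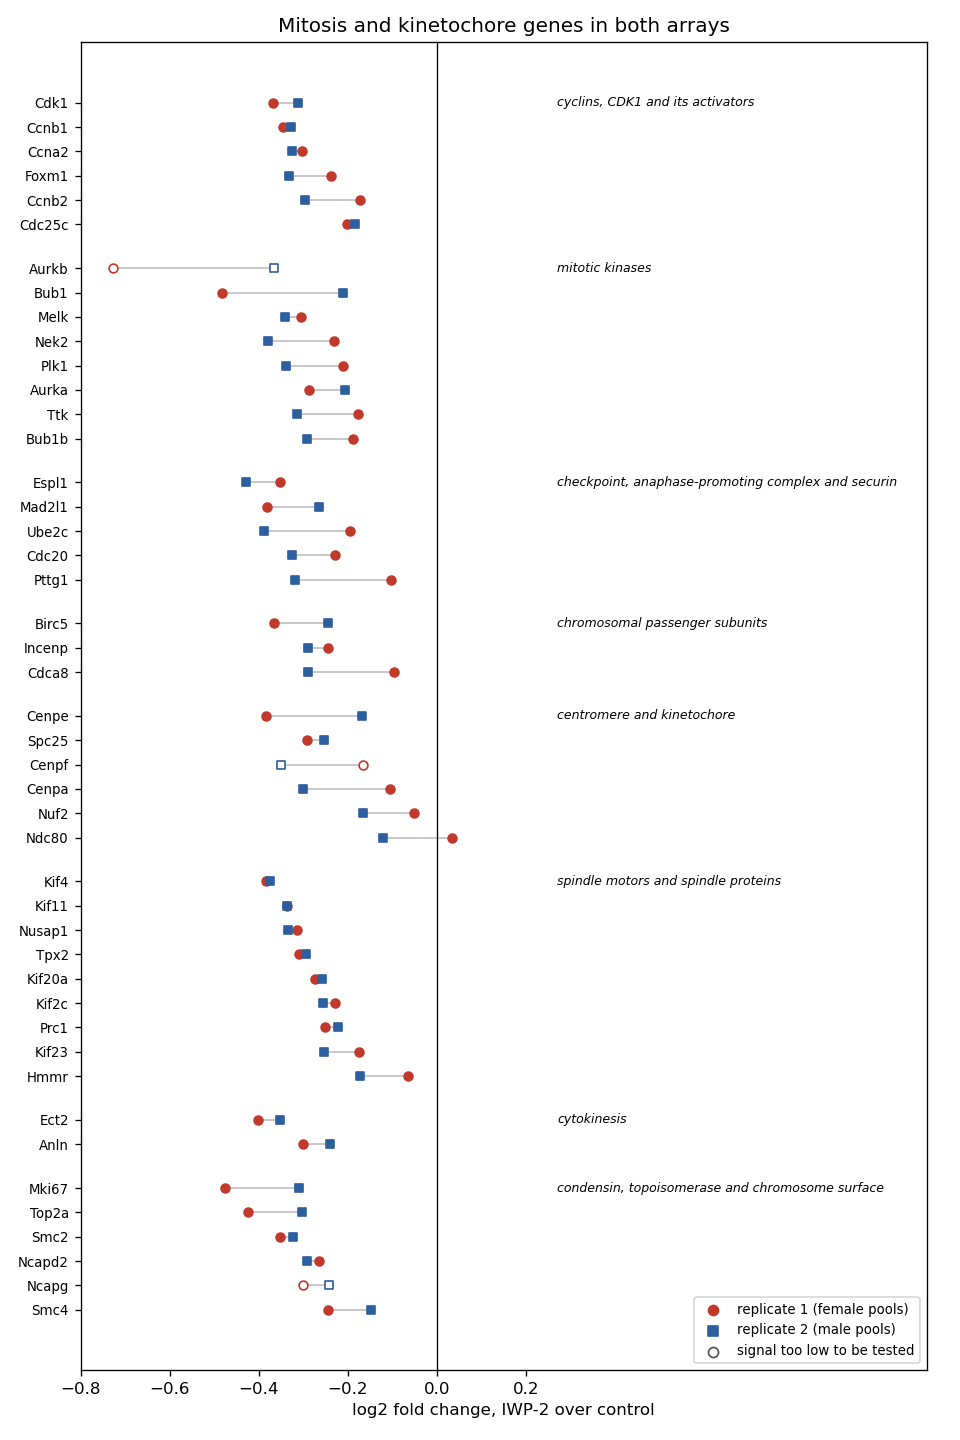
Log2 fold change of IWP-2 over control (x axis) of each of the 45 members, grouped by role, with replicate 1 as circles, replicate 2 as squares and a grey line joining both; open symbols mark the 3 members with too low a signal to be tested. All points lie left of 0 except *Ndc80* in replicate 1, and the tested members reach from −0.48 to 0.03 in replicate 1 and from −0.43 to −0.12 in replicate 2.

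The shift was small but its place among all genes was narrow. When all genes tested were ordered by mean log2 fold change, 39 of the 42 members lay in the lowest 10% and 33 in the lowest 5%. In both arrays 35 members were lower by at least 10%, against 4.73% of all genes. The smallest mean change of any gene called by limma was 0.41 on the log2 scale, and the largest of a tested member was −0.39, in *Mki67*. The arrays differed by a median of 0.09 for members and by 0.10 for all genes. Across the 42 members the fold changes of both arrays had a Pearson correlation of 0.31 (Spearman 0.23), which is given as a description because the members share the same 4 pools. Their fold changes varied more in replicate 1 (SD 0.11) than in replicate 2 (SD 0.07), as did those of all genes tested (SD 0.22 and 0.17).

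**Figure D2:**
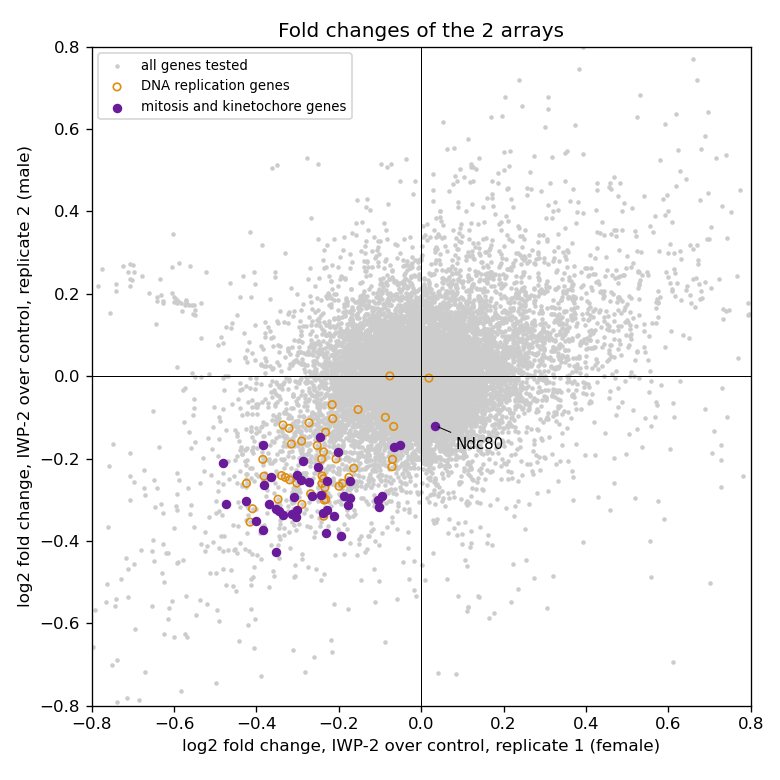
Log2 fold change of IWP-2 over control in replicate 1 (x axis) and replicate 2 (y axis) for all 14336 genes tested (grey), 43 DNA replication genes (orange rings) and 42 members (purple); 145 genes lie beyond the axes, which end at 0.8. The members form a compact group in the lower left, overlapping with the replication genes, with *Ndc80* alone to the right of 0.

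The cyclins, CDK1 and their activators control entry into mitosis, and all 6 were lower in both arrays, with a median log2 fold change of −0.30 and with unadjusted limma p-values below 0.05 for all 6. *Cdk1*, the kinase that drives mitotic entry, had signals of 1572 in the control and 1218 in the IWP-2 pool of replicate 1, and of 1642 and 1324 in replicate 2. Both treated pools lay below both control pools. Here and below, such comparisons cross arrays that were normalised separately and differ in sex and dye orientation. Only the ratio within an array is paired. How often pools were separate in this way over all genes was not counted. The mean log2 fold change of *Cdk1* was −0.34 ± 0.07 (limma's moderated SE, here and below, n = 2 arrays, limma adjusted p = 0.0871). *Ccnb1*, the cyclin B1 partner of CDK1, had signals of 2858 and 2250 (control and IWP-2) in replicate 1 and of 3008 and 2398 in replicate 2. The groups did not overlap and both arrays gave nearly the same ratio (−0.34 and −0.33), with a limma adjusted p of 0.087. Its dimmer probes gave smaller changes, with means of −0.18 and −0.17, and the mean over all its probes was −0.23 (limma adjusted p = 0.213). *Foxm1*, the forkhead factor that activates G2 and mitosis genes, had signals of 573.9 and 486.4 in replicate 1 and of 591.9 and 470.2 in replicate 2. Its treated pools were again below both controls, with a mean log2 fold change of −0.29 ± 0.07 (limma adjusted p = 0.136). *Cdc25c*, a phosphatase that activates CDK1, was among the 5 members nearest to 0, with signals of 303.2 and 263.5 in replicate 1 and of 303.9 and 267.7 in replicate 2. Its groups were separate and its mean log2 fold change was −0.19 ± 0.07 (limma adjusted p = 0.274). The cyclins *Ccna2* and *Ccnb2* had mean log2 fold changes of −0.31 and −0.23.

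**Figure D3:**
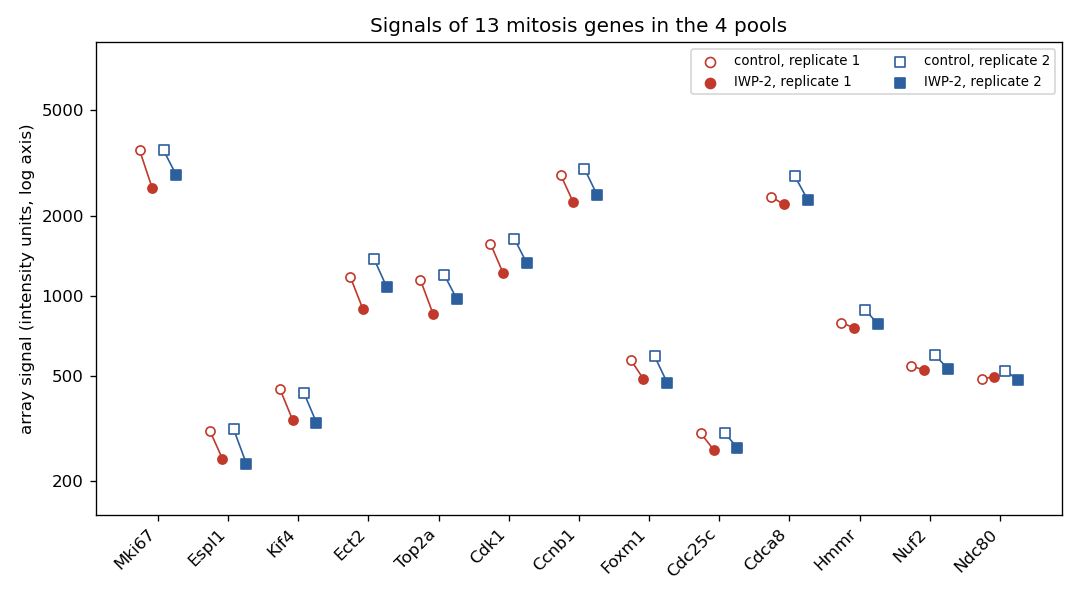
Array signal in intensity units (log axis) of 13 members in each of the 4 pools, with open symbols for control, filled symbols for IWP-2, circles for replicate 1 and squares for replicate 2. Each line slopes down from control to IWP-2 except that of *Ndc80* in replicate 1, and the lines flatten from *Mki67* at the left to *Ndc80* at the right.

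Mitotic kinases phosphorylate spindle, centrosome and kinetochore proteins. All 7 tested kinases were lower in both arrays (median −0.27) and all 7 had unadjusted limma p-values below 0.05. *Bub1*, a spindle checkpoint kinase, had the lowest mean (−0.35), but its arrays were far apart, at −0.48 in the female and −0.21 in the male pools. The maternal embryonic leucine zipper kinase *Melk* was at −0.32, the centrosome kinase *Nek2* at −0.31, the polo-like kinase *Plk1* at −0.27, the spindle pole kinase *Aurka* at −0.25, the checkpoint kinase *Ttk* at −0.25 and *Bub1b* at −0.24. *Aurkb*, the kinase of the chromosomal passenger complex, was too dim to be tested, with signals of 37.4 and 22.6 in replicate 1 and of 38.9 and 30.2 in replicate 2. It was lower under IWP-2 in both arrays, but at a signal at which its ratio carries little precision.

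The checkpoint and anaphase genes govern the moment at which sister chromatids part. All 5 were lower in both arrays, with a median of −0.29 and unadjusted limma p-values below 0.05. *Espl1* encodes separase, the protease that opens the cohesin ring at anaphase. Its signals were 310.6 in the control and 243.4 in the IWP-2 pool of replicate 1, and 314.3 and 233.7 in replicate 2. The control pools were almost equal and both treated pools lay below them, with a mean log2 fold change of −0.39 ± 0.07 (limma adjusted p = 0.0621). *Pttg1*, the securin that holds separase inactive, was less far from 0 at −0.21, with −0.10 in replicate 1 and −0.32 in replicate 2. The checkpoint protein gene *Mad2l1* was at −0.32, the ubiquitin-conjugating enzyme gene *Ube2c* at −0.29 and the coactivator gene *Cdc20* at −0.28. The dimmer probes of *Mad2l1* gave smaller changes, each with a mean of −0.17, and that of *Ube2c* gave −0.32.

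The chromosomal passenger complex places Aurora B at centromeres and later at the spindle midzone. Its survivin subunit *Birc5* had a mean log2 fold change of −0.30 and its scaffold *Incenp* one of −0.27. *Cdca8*, which encodes borealin, had signals of 2361 and 2210 (control and IWP-2) in replicate 1 and of 2816 and 2303 in replicate 2. The treated pools lay below both controls, but the difference was small in the female pools (−0.10) and larger in the male pools (−0.29), and the mean was −0.19 ± 0.08 (limma adjusted p = 0.359).

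Centromere and kinetochore genes had the median nearest to 0 of any role, −0.20 for the mean of both arrays but −0.10 in replicate 1 and −0.17 in replicate 2, with 4 of 5 tested members below 0 in both arrays and 3 of 5 at an unadjusted limma p below 0.05. *Ndc80* and *Nuf2* encode partners in the NDC80 complex, which grips microtubule ends at the outer kinetochore. *Ndc80* had signals of 485.2 in the control and 496.8 in the IWP-2 pool of replicate 1, and of 523.1 and 481.4 in replicate 2. It was the only tested member above 0 in an array, and its treated and control pools overlapped. Its mean log2 fold change was −0.04 (95% interval −0.22 to 0.13, limma adjusted p = 0.96). *Nuf2* had signals of 544.4 and 525.2 in replicate 1 and of 596.4 and 531.5 in replicate 2. Its mean was −0.11 (95% interval −0.28 to 0.06, limma adjusted p = 0.696), and its treated pools lay just below its controls. Its dimmer probes were lower in both arrays, with means of −0.25 and −0.28, and the mean over all its probes was −0.21 (limma adjusted p = 0.251). Whether these genes differed from the other members was not tested. *Spc25*, another subunit of the same complex, was at −0.27. The kinetochore motor *Cenpe* was at −0.38 in replicate 1 and −0.17 in replicate 2. The centromeric histone gene *Cenpa* was at −0.10 and −0.30. *Cenpf* had a signal of at most 19.1 in any pool and was at the floor of 15 in both treated pools, so that no ratio could be measured.

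Spindle motors and spindle proteins were lower in both arrays in 9 of 9 cases, with a median of −0.27 (8 with an unadjusted limma p below 0.05). *Kif4*, a chromokinesin that shapes the spindle midzone, had signals of 445.4 and 341.2 in replicate 1 and of 431.8 and 333.1 in replicate 2. The arrays agreed closely (−0.38 and −0.37), the groups did not overlap, and the mean was −0.38 ± 0.07 (limma adjusted p = 0.0621). *Kif11*, the motor that pushes spindle poles apart, was at −0.34 and showed an equally even pair of ratios, −0.34 in each array. *Nusap1* was at −0.32, *Tpx2* at −0.30, *Kif20a* at −0.26, *Kif2c* and *Prc1* at −0.24 and *Kif23* at −0.21. *Hmmr*, a spindle-associated hyaluronan receptor, had signals of 792.7 and 757.8 in replicate 1 and of 885.2 and 785.5 in replicate 2. Its groups were separate by a narrow margin, with a mean of −0.12 (95% interval −0.29 to 0.05, limma adjusted p = 0.632).

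The cytokinesis gene *Ect2* encodes the exchange factor that activates RhoA at the cleavage furrow. Its signals were 1182 and 894.5 (control and IWP-2) in replicate 1 and 1379 and 1081 in replicate 2. Both treated pools lay below both controls, and the mean log2 fold change was −0.38 ± 0.07 (limma adjusted p = 0.0649). Its other probe was at the floor in all 4 pools, and the mean over both probes was −0.19. *Anln*, the furrow scaffold anillin, was at −0.27.

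Genes for condensin, topoisomerase II and the chromosome surface had the lowest median of any role (−0.34) and were below 0 in both arrays in 5 of 5 tested cases, each with an unadjusted limma p below 0.05. *Mki67* encodes Ki-67, which coats mitotic chromosomes and marks cycling cells. It had signals of 3529 in the control and 2540 in the IWP-2 pool of replicate 1, and of 3536 and 2853 in replicate 2. The controls were almost equal, both treated pools were lower, and the mean of −0.39 ± 0.07 corresponds to a level 23.8% lower (limma adjusted p = 0.0779). *Top2a* had signals of 1151 and 857.5 in replicate 1 and of 1201 and 973.9 in replicate 2. Its groups did not overlap and its mean was −0.36 ± 0.07 (limma adjusted p = 0.0823). The condensin genes *Smc2*, *Ncapd2* and *Smc4* were at −0.34, −0.28 and −0.20. *Ncapg*, a condensin subunit with signals between 63.7 and 82.7, was not tested and was lower in both arrays (−0.30 and −0.24).

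The ratios were also even within the arrays. Each probe was spotted 4 times, and of the spots kept for the tested members 156 of 159 in replicate 1 and 155 of 155 in replicate 2 were below 0, with a median SD between spots of a probe of 0.03 and 0.02. Spots of a probe share the pools and the hybridization of their array, so they are technical copies and not replicates. The share of spots below 0 over all genes was not counted. Of the members, 15 had further probes, 20 in all. The 14 of these with a signal above 100 were below 0 in both arrays (median −0.27), the 4 dimmer ones likewise, and 2 lay at the floor. Of all genes tested, 29.1% were below 0 in both arrays by their brightest probe. The size of the change was nearly unrelated to the signal (Pearson correlation across members −0.09, a description across genes of the same pools).

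Other cell cycle genes were read from the same fit. For comparison with the lists below, 29.1% of all genes tested were below and 25.7% above 0 in both arrays. Of all genes, 6.64% were lower at an unadjusted limma p below 0.05, and limma called 0.886% lower. Of 77 further G2 and mitosis genes tested, 75 were below 0 in both arrays, 61 had an unadjusted limma p below 0.05, and the median was −0.25. Limma called 2 of them lower, *Aspm*, a spindle pole protein (−0.47, limma adjusted p = 0.0392), and *Spag5*, a spindle and kinetochore protein (−0.44, limma adjusted p = 0.0406). Among 43 DNA replication genes, 41 were below 0 in both arrays, 34 at an unadjusted limma p below 0.05 and 0 called, with a median of −0.23. The lowest were *Pole*, the leading-strand polymerase (−0.38, limma adjusted p = 0.0621), and *Uhrf1*, which couples replication to DNA methylation (−0.37). The lower levels were thus shared with S-phase genes, and no difference between these lists was tested. *Mycn* (−0.38, limma adjusted p = 0.0681) and *Cdkn2c* (−0.29) were lowest among 18 G1 cyclin, MYC and CDK inhibitor genes, whose median was −0.08 with 12 below 0 in both arrays, 5 at an unadjusted limma p below 0.05 and 0 called. The CDK inhibitor *Cdkn1a* stood highest there, with 0.30 in replicate 1 and −0.06 in replicate 2.

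The regulators and cofactors of these promoters were read likewise, with no test of their difference from the members. Of 13 genes for the MuvB core, B-MYB, pocket proteins, E2F partners and NF-Y, 9 were below 0 in both arrays, 1 had an unadjusted limma p below 0.05, 0 were called and the median was −0.11. *Mybl2*, which encodes B-MYB and is itself periodic, was lowest at −0.21. *Rbl1*, the pocket protein p107, followed at −0.17. Among 14 genes for the core of the anaphase-promoting complex, its regulators and WEE1 kinases, 6 were below and 3 above 0 in both arrays. The shares over all genes were 29.1% and 25.7%. In this list 0 genes were called and the median was −0.01. The lowest were the CDK1-inhibiting kinases *Wee1* (−0.22) and *Pkmyt1* (−0.19), while the core subunits *Cdc23* (0.08) and *Anapc4* (0.02) were the highest. In this list 3 genes had an unadjusted limma p below 0.05. In the RefSeq windows a CHR motif was found in 16.7% of 12 genes of this list and in 30.6% of 36 replication genes. The share was 60.3% of 68 further G2 and mitosis genes and 30.6% of all 27025 genes with a window. Whether the motif goes with the fold change was not tested.

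**Figure D4:**
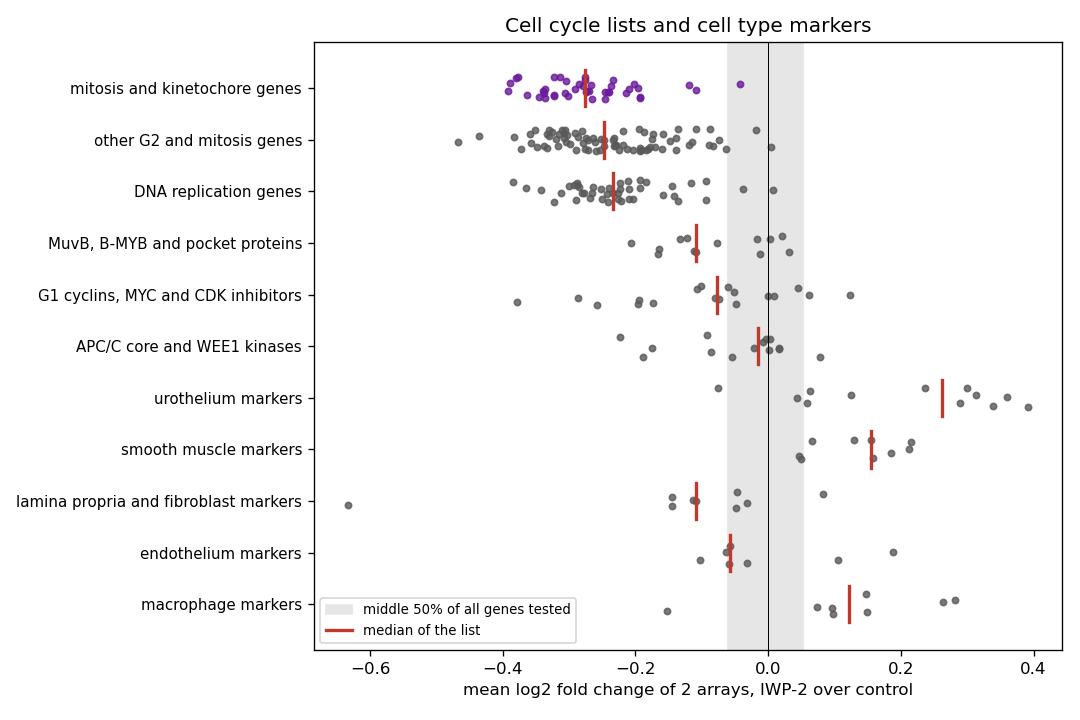
Mean log2 fold change of both arrays, IWP-2 over control (x axis), of every tested gene in 11 lists, with a red bar at the median of each list and a grey band for the middle 50% of all genes tested. Members, further G2 and mitosis genes and replication genes lie mostly left of the band. Urothelium, smooth muscle and macrophage markers lie mostly right of it, and the median of the anaphase-promoting complex list lies near 0.

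The treatment had a clear readout in the same pools. Of 9 tested WNT feedback genes, which WNT signalling itself switches on, 8 were called lower by limma with a median of −0.80 over the list. *Axin2* had signals of 181.1 and 42.2 (control and IWP-2) in replicate 1 and of 154.4 and 46.7 in replicate 2, which gave a mean of −1.91 on the log2 scale (limma adjusted p = 0.000826). Its change and that of the median feedback gene were larger than that of any member.

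Cell type markers were read from the same fit, and their part in the lower mitosis signals was not tested. All 12 urothelium, 9 smooth muscle and 9 fibroblast markers of the labelled tissue passed the signal threshold, while of 8 kidney nephron markers 0 passed it and the highest signal of any was 61.4. Of 12 urothelium markers, 9 were above 0 in both arrays (25.7% of all genes), 7 were higher at an unadjusted limma p below 0.05 (6.27% of all genes) and 0 were called higher (0.363% of all genes), and the median was 0.26 (0.39 in replicate 1 and 0.13 in replicate 2). Their summed signal was 108600 in the control and 139500 in the IWP-2 pool of replicate 1, and 132200 and 140800 in replicate 2. Of 9 smooth muscle markers, 5 were above 0 in both arrays, 2 with an unadjusted limma p below 0.05 and 0 called (median 0.16), with summed signals of 99420 and 99450 in replicate 1 and of 84820 and 99340 in replicate 2. Of 9 lamina propria and fibroblast markers, 4 were below and 1 above 0 in both arrays (29.1% and 25.7% of all genes), with a median of −0.11. Their summed signal, most of it from collagen and decorin probes, went from 143600 to 123900 in replicate 1 and from 128700 to 129700 in replicate 2. Limma called 1 of these lower, *Aldh1a2*, the retinoic acid synthesizing enzyme of lamina propria fibroblasts (−0.76 in replicate 1 and −0.50 in replicate 2, limma adjusted p = 0.0281). Macrophage markers were above 0 in both arrays in 6 of 8 cases (median 0.12, 0 called), with summed signals of 9305 and 9963 in replicate 1 and of 10120 and 10600 in replicate 2. Of 7 endothelium markers, 2 were below and 2 above 0 in both arrays (median −0.06, 0 called), with summed signals of 18670 and 17280 in replicate 1 and of 16460 and 16720 in replicate 2. Among erythroid markers, 2 globin genes were tested (median 0.15, 0 called), and *Slc4a1* was at the floor in all 4 pools. The summed signal of the tested members was 77320 in the control and 64090 in the IWP-2 pool of replicate 1, and 82780 and 67980 in replicate 2.

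The labels were checked against the sexes of the pools. *Xist* had signals of 1611 and 1628 in the pools of replicate 1 and was at the floor in those of replicate 2, and *Ddx3y* and *Eif2s3y* were detected in replicate 2 alone. Between 68.5% and 70.0% of spots were well above background in each channel and 0 spots were saturated. With 2 arrays, each with 1 pool per condition, the number of pools limits the precision, and median centring of the arrays in place of the loess curve moved the median over all genes from −0.01 to 0.04 and that of the members to −0.23, with 41 members still below 0 in both arrays. With the normexp background correction 4 members were called lower, *Ect2*, *Espl1*, *Kif4* and *Mki67*, against 1.12% of all genes. Their limma adjusted p-values ran from 0.0444 to 0.0495.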

How the data were processed

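RNA was measured on 2 two-colour arrays of the same slide and scan, each with a control and an IWP-2 pool. The authors deposited scanner files with processed signal intensities from Feature Extraction (12.2.0.7 in the file headers, 10.7.3.1 in the submitters' processing notes), already background-subtracted and dye-normalised, and with the log10 of the red over the green signal, used to check directions. The deposited series table holds a score, a signed fold change with 1 decimal, and served as an alternative. Columns without a sample numbered 0. Control spots (17263) and flagged spots (3.32% and 3.22%) were left out, signals were loess-normalised within arrays, averaged over spots, floored at 15 and expressed as log2 (limma 3.58.1, R 4.3.3). The brightest probe stood for a gene. Testing covered genes whose mean signal passed 100 in either condition and used limma's lmFit and eBayes against 0 (1 residual degree of freedom, Benjamini-Hochberg at 0.05). The control and IWP-2 pool of an array were paired by construction. Nothing states that the pools came from separate litters or cultures on separate days. The p-values, SEs and intervals therefore cover only spread between these arrays. Most of that spread was not the gene's own but a prior variance that limma pooled over all genes tested. Of 6.49 degrees of freedom in total, 1 came from the gene itself. *Kif11*, at −0.336 in replicate 1 and −0.337 in replicate 2, thus had a moderated SE of 0.066. The script was tested on simulated data. Full values were given for *Ccnb1*, *Cdk1*, *Mki67*, *Top2a*, *Foxm1* and the 5 members at each end of the tested range, and from other lists for called genes and up to 2 at each end. Members and lists were chosen with earlier results of these data known. Promoters are from RefSeq, matched by symbol.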

Additional observations from a re-analysis of the deposited data

Results flagged for a closer look

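The replicates differed in sign for 1 member and 1 marker list. *Ndc80* was at 0.03 in the female and −0.12 in the male array, and the male minus female difference was −0.154 on the log2 scale. The endothelium markers had medians of −0.07 (female) and 0.01 (male), and the difference was 0.0788. Neither difference was tested, since there was 1 array for each sex, and sex and dye orientation cannot be told apart.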

How the results depend on the processing

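Limma called 0 members lower in the reported analysis and likewise with flagged spots kept, without normalization within arrays, with median centring, with a floor of 1, with all probes averaged, with the filter on probes well above background, without a filter on signal and with no replicate block (unpaired channels, lowest adjusted p of a member 0.425). It called 4 lower with normexp (against 1.12% of all genes) and 16 from the authors' series table (against 4.87% of all genes). In that series table values of 1 decimal were often identical in both arrays and had no variance (limma adjusted p of 0.0163 in each of the 16, *Cdc25c* included). Members below 0 in both arrays numbered 39 to 41 of 42 in these settings, or 44 of 45 with the looser filters, and their median stayed between −0.28 and −0.23. Genes called in all numbered 179 (127 lower and 52 higher). They numbered 268 with normexp, 117 without normalization, 67 with probes averaged, 8 unpaired, 1321 in the series table and 0 with either looser filter, and 193 (108 lower and 85 higher) with median centring. Without replicate 2 *Ndc80* was at 0.034 and without replicate 1 at −0.12; no other named member changed sign.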
